A study of Rattus norvegicus with 2 samples.

Results

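Zinc-finger protein genes were examined as hosts of circular RNAs (circRNAs) in rat lung, with and without lipopolysaccharide (LPS) injury. CircRNAs were taken as members when any host gene name given for them began with Zfp or Znf and a digit, or with Zbtb, Zkscan, Zscan, Zfhx, Zc3h, Zcchc, Zmym, Zmiz, Zfr, Zfand, Zfyve, Zdhhc or Zswim, or was Zeb1, Zeb2 or Zzz3. This gave 94 of 4734 circRNAs, from 63 of 2480 host genes. Hosts were found for 12 of the 17 prefixes, with none for Znf, Zkscan, Zfhx, Zfr and Zzz3.

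In the study, 12 SD rats were randomly assigned to a Sham group, given PBS, and an LPS group, given LPS at 2 mg/kg by intratracheal spray, and lung was taken after 24 h. CircRNA was measured in 1 Sham library and 1 LPS library, so no difference has a replicate check and no p-value is given. Whether the RNA of several rats was pooled is not stated in the sources used here. Per the labels, ribosomal RNA was removed, linear RNA was digested with RNase R and the second strand was marked with dUTP, whereas the study's methods name RsaI digestion of cDNA from a SmartPCR kit.

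A circRNA forms when the end of an exon is spliced back to the start of the same or an earlier exon of its host gene, and the back-splice junction identifies it. Zinc-finger proteins fold small domains around zinc ions. C2H2 fingers mostly bind DNA and regulate transcription, CCCH and CCHC fingers mostly bind RNA, FYVE fingers bind a membrane lipid of endosomes, and DHHC proteins are enzymes that attach palmitate to other proteins. LPS, from the outer membrane of Gram-negative bacteria, activates Toll-like receptor signalling and draws neutrophils into the lung.

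Values are junction reads scaled to 1000000 per library (CPM), where 1 read was worth 26.2 CPM for Sham and 19.0 CPM for LPS. The depths were 38112 and 52505 junction reads. The lowest listed value was 2 reads, and a junction not listed in a library, deposited as 0.001, may hide 1 read. Brackets give 95% Wilson intervals for CPM and exact Clopper-Pearson intervals for ratios. Both allow for counting error alone, since 1 library per group shows no variation between rats or libraries. Amplified reads that carry no molecular identifier do not stand for separate molecules, so even the counting error may be understated. Where a host gene was not listed in a library, its value is bounded by the one-sided 95% Poisson limit for 1 hidden read per junction. For a single junction this limit is 4.74 reads, or 124 CPM in Sham and 90.4 CPM in LPS. For a gene or junction not listed in a library, a fold given with "at least" divides the listed value by the limit. It leaves out the counting error of the listed value, so the fold may be smaller. A host gene was counted as higher or lower in LPS at a fold of at least 2, computed with 0.5 reads added, when it had at least 10 reads over both libraries. In whole lung, fewer cells of a type and less RNA per cell cannot be told apart.

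As a group the zinc-finger circRNAs made up nearly the same share of both libraries on the deposited scale, while single host genes differed widely. Their junctions held 475 Sham reads, or 12463 CPM (11398 to 13627), and 657 LPS reads, or 12513 CPM (11597 to 13500.2). The ratio of LPS to Sham was 1.004 (0.891 to 1.13). Single host genes move this ratio both ways. Without the most-read junction, that of Zc3h4, the LPS library held 10323 CPM and the ratio was 0.828 (0.731 to 0.939). Of 2 sets picked after their values were seen, leaving out Zc3h4 and Zcchc11 gave 0.670 (0.583 to 0.770) and leaving out Zfp609, Zfp532, Zmym4 and Zfp827 gave 1.39 (1.21 to 1.60).

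Some host genes held quite different shares of the group's reads in the 2 libraries. Zc3h4 and Zcchc11 together had 9.26% of the group's Sham reads and 39.4% of its LPS reads. Zfp609, Zfp532, Zmym4 and Zfp827 together had 34.7% of the Sham reads and 9.89% of the LPS reads. Zfp292 had much the same share of both, 7.79% and 9.28%.

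Of the 63 host genes, 48 were listed in the Sham library and 48 in the LPS library. Both libraries listed 33, Sham only 15 and LPS only 15. Over all 2480 host genes these were 1292, 601 and 587, which are similar shares. At least 10 reads over both libraries were reached by 28 host genes. Among them 7 (25%) were counted as at least 2-fold higher in LPS, against 24.7% of the 1192 host genes of the table with as many reads. Another 9 (32.1%) were at least 2-fold lower, against 26.9%, and 12 lay within 2-fold. One of the 7, Zfand3, was not listed in Sham, and its bound of 1.53-fold falls short of 2-fold. With at least 10 reads, zinc-finger host genes thus passed 2-fold about as often as host genes in general. With at least 20 reads the shares lay further apart: 5 of 12 were higher and 5 lower, against 24.1% and 20.3% of 750 host genes. The median log2 fold change of the 28 zinc-finger host genes was 0.077, against -0.13 over all host genes with at least 10 reads. This order turned with the most-read junction of each host gene alone (-0.20 and 0.068) and was lost with at least 20 reads (0.062 and 0.065). It held with 0.001 as 1 read (-0.12 and -0.17), no minimum of reads (-0.10 and -0.32) and single host names (-0.030 and -0.16). The other 35 host genes had 2 to 9 reads in all, too few for a call.

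These directions depend on how the libraries are scaled. Equal read numbers in the 2 libraries give a log2 ratio of -0.46. The median log2 ratio of the 1757 circRNAs listed in both libraries was also -0.46, so scaling to it amounts to comparing unscaled read numbers. The median of the 323 of these circRNAs with at least 50 reads, a set chosen after seeing the data, was 0.44. Scaled to the former, 8 zinc-finger host genes were higher and 8 lower, with a median log2 fold change of 0.54, against 34.6% higher, 17.8% lower and a median of 0.33 over all host genes. Scaled to the latter, 5 were higher and 11 lower and the median turned to -0.37, against 19.97%, 38.3% and -0.57 over all. The log2 ratio of the summed level was 0.47 and -0.44 on these scales, and without Zc3h4 it was 0.19 and -0.72, so the direction of the group's sum flips with the scale.

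**Figure D1:**
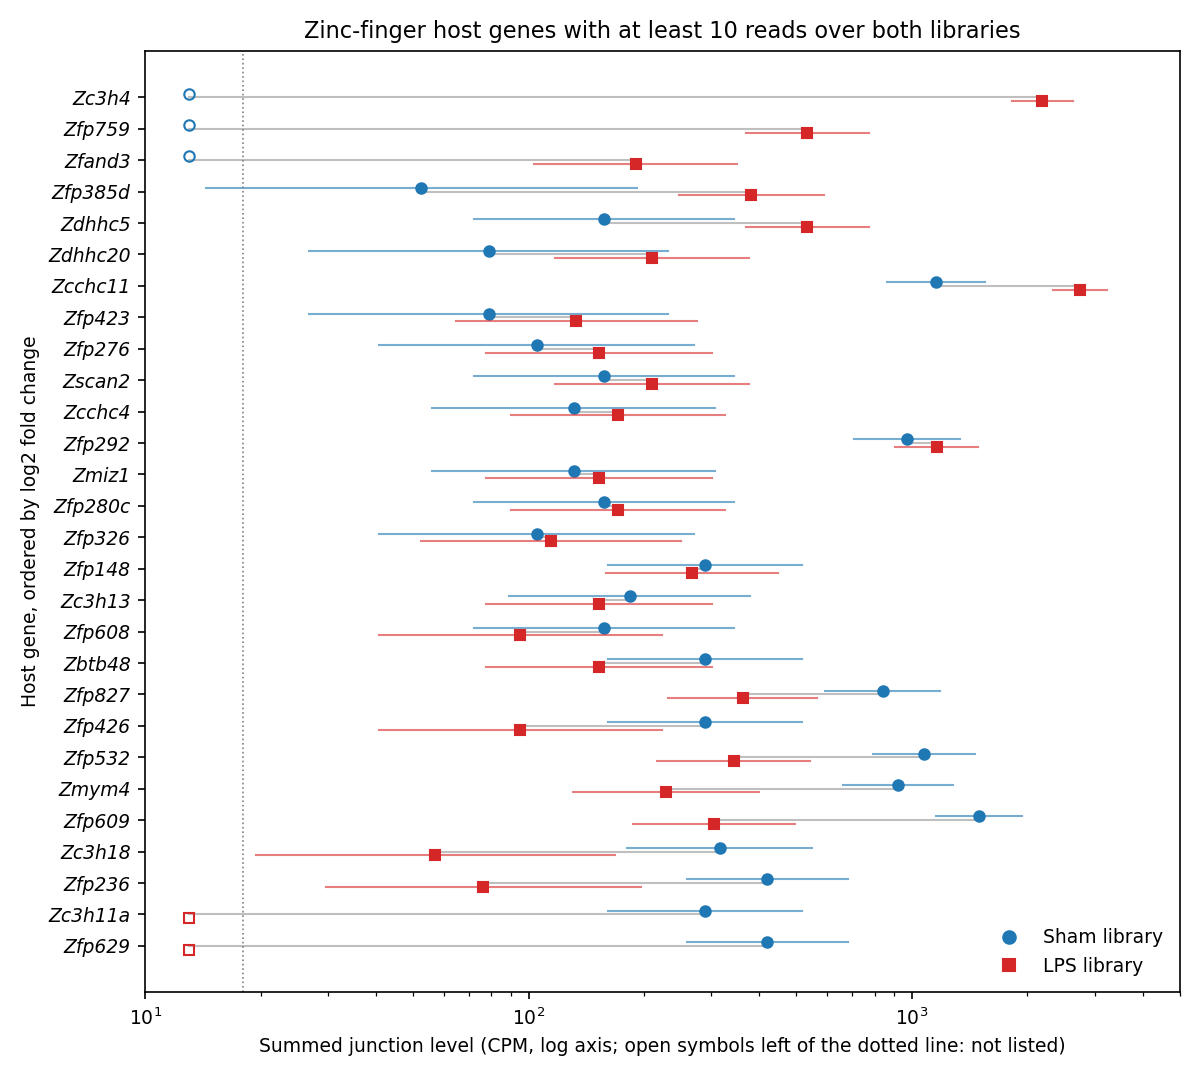
Summed junction level (CPM, log axis) of the 28 zinc-finger host genes with at least 10 reads, ordered by log2 fold change, in the Sham library (blue circles) and the LPS library (red squares), 1 library each. Bars are 95% Wilson intervals for counting error only, and open symbols left of the dotted line mark a library in which the host gene was not listed. Zc3h4 stands at 2190.3 CPM in LPS and Zcchc11 at 2743 CPM, and Zfp609 is the highest in Sham at 1496 CPM.

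The Zfp genes, mostly C2H2 transcription factors, were the largest subfamily, with 26 host genes and 39 junctions. Their summed level was 7163 CPM (6365 to 8061) in Sham against 4819 CPM (4261 to 5448) in LPS, a ratio of 0.673 (0.565 to 0.801). On the log2 scale this is -0.57, and -1.02 when scaled to shared circRNAs with at least 50 reads. Scaled to all shared circRNAs it was -0.11, with an interval that includes equality (-0.36 to 0.14). Of 15 Zfp host genes with at least 10 reads, 2 (13.3%) were higher and 6 (40%) lower, against 24.7% and 26.9% of all host genes with as many reads. Scaled to all shared circRNAs these were 3 and 5, beside 34.6% and 17.8% of all, and scaled to those with at least 50 reads 2 and 7, beside 19.97% and 38.3%. The lower sum came largely from Zfp609 and Zfp532, without which the ratio was 0.908 (0.741 to 1.11) and flipped when scaled to all shared circRNAs (log2 0.32). The median log2 fold change of the 15 was -0.13, the same as over all host genes.

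Zfp609, whose protein works with the cohesin loader Nipbl, had the highest Sham level of all zinc-finger host genes. Its single junction, on chromosome 8 from 71336875 to 71337745 (build rn6, as are all positions given), spans 871 nt. It had 57 reads in Sham, or 1496 CPM (1155 to 1937), and 16 in LPS, or 305 CPM (188 to 495). The level was 4.91-fold lower in LPS (2.78 to 9.16), and the intervals of the libraries do not overlap. Zfp608, the close relative of Zfp609, was named for this relation after its values were seen. It had 6 Sham and 5 LPS reads, within 2-fold.

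Zfp532, whose human counterpart is fused to NUTM1 in some NUT carcinomas, was at 1076 CPM (793 to 1459) in Sham from 41 reads and at 343 CPM (217 to 542) in LPS from 18 reads. The value was 3.14-fold lower in LPS (1.76 to 5.80). Its 3 junctions start at the same position, 61323689 on chromosome 18, and end at 61328704, 61335698 and 61340634. They went from 21 Sham to 7 LPS reads, from 4 to 0 and from 16 to 11, so that all lay lower in LPS, the shortest with the clearest difference (4.13-fold, 1.69 to 11.5).

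Zfp827, which brings the NuRD chromatin complex to telomeres, was at 839.6 CPM (595 to 1185) in Sham against 362 CPM (232 to 565) in LPS. It was 2.32-fold lower (1.28 to 4.33), with 3 junctions of 8, 21 and 3 Sham reads and 4, 15 and 0 LPS reads. This call was lost when scaled to all shared circRNAs (log2 fold change -0.74) and with the most-read junction alone (-0.93).

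Other Zfp host genes were lower at fewer reads. Zfp236 had 16 Sham reads, or 419.8 CPM (258 to 682), and 4 LPS reads, or 76.2 CPM (29.6 to 196). This is 5.51-fold lower (1.78 to 22.7). Zfp629 also had 16 Sham reads and was not listed in LPS, at least 4.65-fold lower, but its junction carries several host gene names. Zfp426 completes the 6 and was named after its values were seen: its 11 Sham and 5 LPS reads give a 3.03-fold lower value with an interval that reaches past equality (0.971 to 11.1).

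The Zfp host genes that were higher in LPS, Zfp759 and Zfp385d, had their LPS reads in junctions with several host gene names. Zfp759 was not listed in Sham and had 28 LPS reads, or 533 CPM (369 to 771), at least 4.28-fold higher. Its junction on chromosome 2, from 86891098 to 86964272, spans 73175 nt, and it was the only zinc-finger host name without a match in the RefSeq gene table of GRCr8, where the other 62 matched on the same chromosome. Zfp385d had 2 Sham reads, or 52.5 CPM (14.4 to 191), and 20 LPS reads, or 381 CPM (247 to 588). The ratio was 7.26 (1.76 to 64.1), but the reads belong to different junctions. The Sham reads came from a junction of 114511 nt on chromosome 15, from 6349802 to 6464312. All LPS reads came from one of 204 nt inside it, from 6423669 to 6423872, and without this junction of several names the log2 fold change of Zfp385d reversed to -2.78.

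Zfp292, a large C2H2 factor first described as an activator of the growth hormone gene, had the most reads of the Zfp genes and lay within 2-fold. It was at 971 CPM (704 to 1338) in Sham against 1162 CPM (905 to 1492) in LPS, a ratio of 1.20 (0.783 to 1.85). Its 2 junctions start at 50318351 on chromosome 5 and went opposite ways. The one of 650 nt had 20 Sham and 47 LPS reads, a ratio of 1.71 (0.991 to 3.04), and the one of 5259 nt, which carries several host gene names, had 17 and 14 reads, a ratio of 0.598 (0.273 to 1.29). Each interval reaches 1. Set against each other, which no scaling affects, their ratios differed 2.85-fold (1.08 to 7.55). This is 1 of 9 pairs of junctions of the same zinc-finger host gene with at least 10 reads each, and the interval is not adjusted for their number. The 2 other pairs with intervals off 1 set the Zmym4 junction not listed in LPS against its other 2, with lower ends of 1.02 and 1.10 that allow for no hidden read. Zfp276, with 3 junctions, had 4 Sham and 8 LPS reads, also within 2-fold.

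The C2H2 genes with other domains were sparsely read. Of the 4 Zbtb host genes, which join C2H2 fingers to a BTB domain, only Zbtb48 had at least 10 reads. Zbtb48, a telomere-binding protein, was at 289 CPM (161 to 517) in Sham against 152 CPM (77.2 to 301) in LPS, within 2-fold, though it passed 2-fold lower when scaled to shared circRNAs with at least 50 reads (-1.34). Zscan2, with a SCAN domain and a junction of several host gene names, had 6 Sham and 11 LPS reads, a ratio of 1.33 (0.451 to 4.38). Zeb2, a repressor of E-cadherin in epithelial-mesenchymal transition that also keeps the identity of tissue macrophages, was seen with 2 LPS reads and not in Sham, which is at the limit of listing.

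Among the RNA-binding CCCH genes, Zc3h4 went against the sum of its subfamily's other members. Its protein, with Wdr82, restricts non-coding transcription. The junction on chromosome 1, from 78369712 to 78370333, spans 622 nt. It was not listed in Sham and had 115 LPS reads, or 2190.3 CPM (1825 to 2628), at least 17.6-fold higher. By level it took place 68 among all host genes in the LPS library.

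The 7 Zc3h host genes summed to 1076 CPM (793 to 1459) in Sham against 2457 CPM (2068 to 2918) in LPS, a ratio of 2.28 (1.60 to 3.33). Without Zc3h4 the direction turned. The other 6 went from 41 Sham reads to 14 LPS reads, 4.03-fold lower (2.15 to 8.01), and stayed lower on both other scales (log2 -1.55 and -2.46).

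Zc3h11a, which acts with the TREX complex in mRNA export, had 11 Sham reads, or 289 CPM (161 to 517), and was not listed in LPS, at least 3.19-fold lower. Zc3h18, which links the nuclear cap-binding complex to RNA decay by the exosome, had 12 Sham reads, or 315 CPM (180.1 to 550.3), and 3 LPS reads, or 57.1 CPM (19.4 to 168). The ratio of Sham to LPS was 5.51 (1.49 to 30.4), and both of its junctions were lower. The rest, named after their values were seen, had fewer reads or no clear direction. Zc3h13, of the N6-methyladenosine writer complex, had 7 Sham and 8 LPS reads. Zc3h14, a poly(A)-binding protein, had 7 Sham reads over 2 junctions, Zc3h12c, an RNase of the Regnase family, had 4, and neither was listed in LPS. The antiviral protein Zc3hav1, which binds CpG-rich viral RNA, had 3 LPS reads and none listed in Sham.

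Zcchc11, of the CCHC genes, had more reads than any other zinc-finger host gene. It is the older name of Tut4, a terminal uridylyltransferase that adds uridines to let-7 precursors and to mRNA. Its level was 1154 CPM (860.2 to 1549) in Sham from 44 reads and 2743 CPM (2330.2 to 3228) in LPS from 144 reads. It was 2.38-fold higher in LPS (1.68 to 3.41). The call was lost when scaled to shared circRNAs with at least 50 reads (log2 fold change 0.79).

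The 5 junctions of Zcchc11 did not share 1 direction. Of these, 4 start at 128130304 on chromosome 5. The shortest, of 253 nt, went from 16 Sham to 59 LPS reads, 2.68-fold higher (1.52 to 4.98). The next, of 530 nt and with several host gene names, went from 19 to 62 reads, 2.37-fold higher (1.40 to 4.19). These short circles held most of the reads of the gene in both libraries. One of 6045 nt had 2 and 3 reads, and the longest, of 23207 nt, had 4 Sham reads and was not listed in LPS. The remaining junction, from 128134607 to 128136348 and also with several names, had 3 Sham and 20 LPS reads, a ratio of 4.84 (1.44 to 25.4).

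The other 5 Zcchc host genes had 14 Sham and 17 LPS reads together, a ratio of 0.881 (0.409 to 1.93) whose direction flips when scaled to all shared circRNAs (log2 0.28). The sum of all 6 was 2.01-fold higher (1.48 to 2.77), and so was largely that of Zcchc11.

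**Figure D2:**
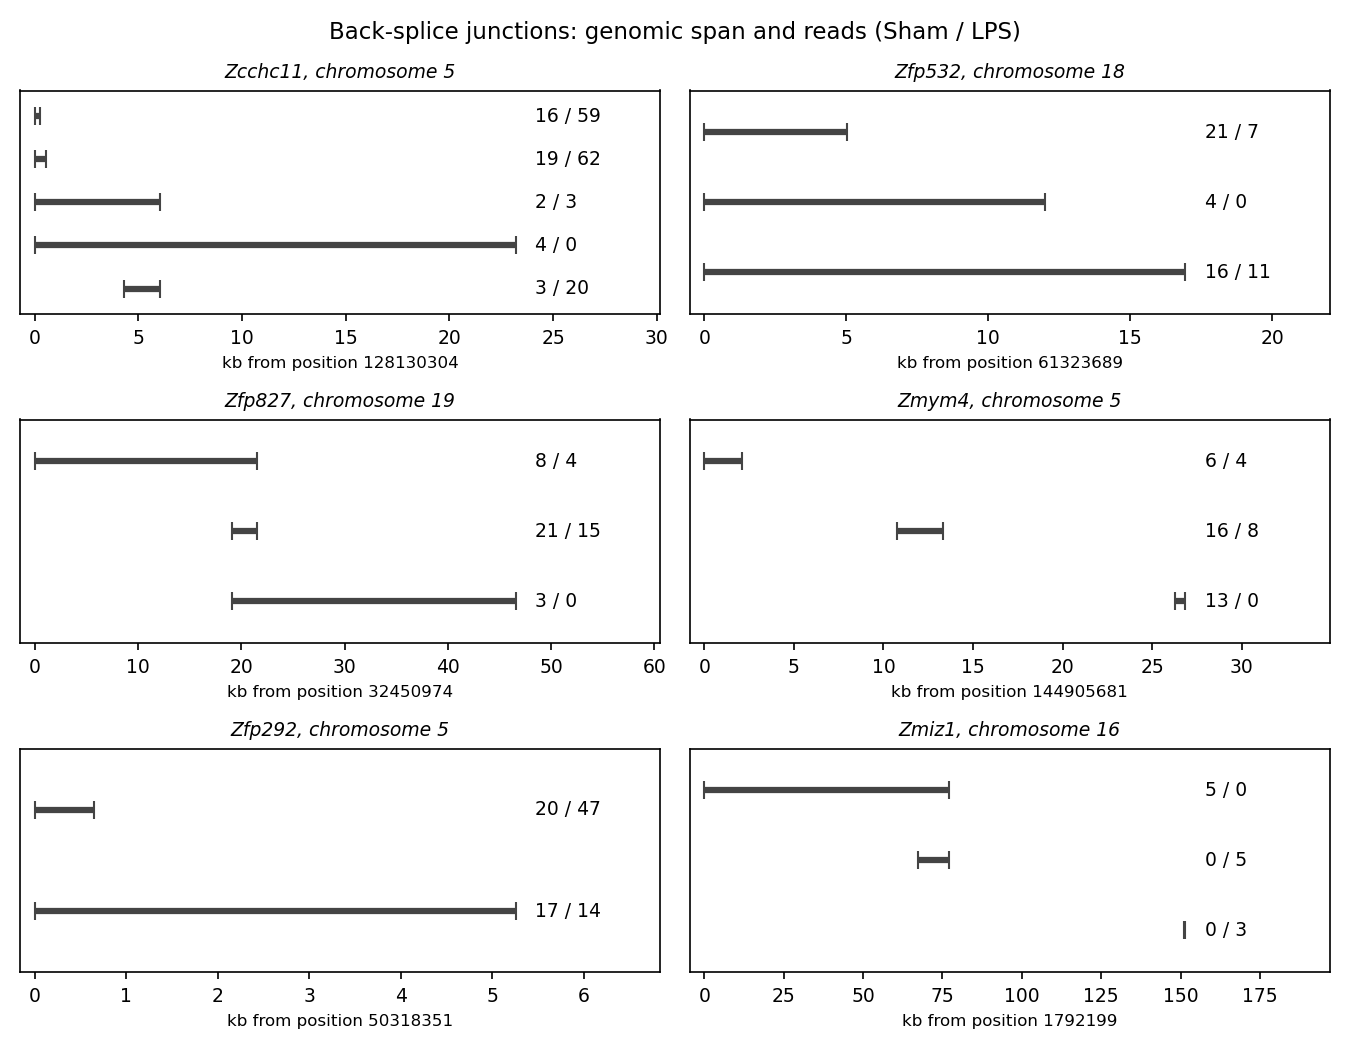
Back-splice junctions of 6 zinc-finger host genes drawn to scale on rn6 (kb from the first start position), with Sham and LPS reads beside each junction, 1 library each. The 3 junctions of Zfp532, of Zfp827 and of Zmym4 all have fewer LPS than Sham reads, whereas Zfp292, Zcchc11 and Zmiz1 hold junctions of both directions.

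Of the 2 MYM-type host genes, Zmym4 was lower in LPS and Zmym2 had too few reads for a call. Zmym4 was at 918 CPM (660.4 to 1277) in Sham from 35 reads and 229 CPM (131 to 399) in LPS from 12 reads, 4.02-fold lower (2.04 to 8.50). Its 3 junctions lie apart on chromosome 5 and share no end. They went from 6 Sham to 4 LPS reads, from 16 to 8 and from 13 to 0, the last, from 144931944 to 144932532, at least 3.78-fold lower. Zmym2, a partner of the Lsd1-CoREST corepressor, had 4 Sham and 2 LPS reads over 3 junctions, 1 of them listed in LPS only. The sum of both, mostly Zmym4, was 3.84-fold lower (2.04 to 7.65), and lower on both other scales (log2 -1.48 and -2.38).

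Zmiz1, a PIAS-like coactivator of Notch1 and nuclear receptors, had 5 Sham and 8 LPS reads, a ratio of 1.16 (0.335 to 4.51). None of its 3 junctions was listed in both libraries. The Sham reads all came from a junction of 77209 nt on chromosome 16, ending at 1869407. In LPS, 5 reads came from one of 9989 nt with the same end, and 3 from one of 339 nt farther along. With so few reads, a junction that is absent from a library lies near the limit of listing.

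The A20- and AN1-type genes of the Zfand subfamily, which act with ubiquitin and the proteasome, were listed in LPS and not in Sham for all 4 hosts. Zfand3 had 10 LPS reads, or 190.5 CPM (103 to 351), at least 1.53-fold higher, from a junction of several host gene names. The lower end of this interval lies below the Sham limit of 124 CPM, so equality is not excluded. Zfand4, Zfand5 and Zfand2b, named after their values were seen, had 4, 3 and 2 LPS reads, each within what the Sham limit allows. Being listed in LPS only was common in the table: it held for 30.5% of all 4734 circRNAs and for 28 of the 94 zinc-finger circRNAs (29.8%).

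The FYVE genes, whose proteins bind phosphatidylinositol 3-phosphate on endosomes, were sparsely read, none with 10 reads. Zfyve9, also known as SARA, which presents SMAD proteins to the TGF-beta receptor, had 6 Sham reads over 2 junctions on chromosome 5, or 157 CPM (72.2 to 343). It was not listed in LPS, at least 1.31-fold lower. The lower end of its Sham interval lies below the LPS limit of 119.9 CPM, so equality is not excluded. Zfyve26 had 2 Sham reads and Zfyve19 had 2 LPS reads, both named after their values were seen. Together the 3 had 8 Sham and 2 LPS reads, a ratio of Sham to LPS of 5.51 with a wide interval (1.10 to 53.3) that rests mainly on Zfyve9 and includes equality when scaled to all shared circRNAs (log2 LPS over Sham -5.27 to 0.33).

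Of the palmitoyltransferases of the Zdhhc subfamily, only Zdhhc5 and Zdhhc20 had at least 10 reads. Both were higher in LPS, against 24.7% of all host genes with as many reads. Zdhhc5, which palmitoylates proteins at the plasma membrane, among them the bacterial sensors Nod1 and Nod2, was at 157 CPM (72.2 to 343) in Sham against 533 CPM (369 to 771) in LPS. Its junction on chromosome 3, from 72096699 to 72097123, spans 425 nt and was 3.39-fold higher in LPS (1.38 to 10.01). Zdhhc20, which palmitoylates the epidermal growth factor receptor, had 3 Sham and 11 LPS reads. Its ratio was 2.66, with an interval that includes 1 (0.703 to 14.9), and the call was lost when scaled to shared circRNAs with at least 50 reads (0.81).

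The other 5 Zdhhc hosts, each under 10 reads, were mostly seen in Sham. Without Zdhhc5 the subfamily went from 23 Sham reads to 15 LPS reads, a ratio of 0.473 (0.230 to 0.947), whose interval includes equality when scaled to all shared circRNAs (log2 -1.66 to 0.38). All 7 together were at 761 CPM (529.9 to 1093) in Sham against 819 CPM (608 to 1103) in LPS, a ratio of 1.08 (0.657 to 1.79) that turns below 1 when scaled to shared circRNAs with at least 50 reads (log2 -0.34). Zdhhc21, known for its part in endothelial cells, was named after its values were seen. It had 7 Sham reads over 2 junctions and was not listed in LPS, at least 1.53-fold lower. The lower end of its Sham interval, 89.0 CPM, lies below the LPS limit of 119.9 CPM, so equality is not excluded. Zswim5, the single SWIM-type host gene, had 2 LPS reads.

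**Figure D3:**
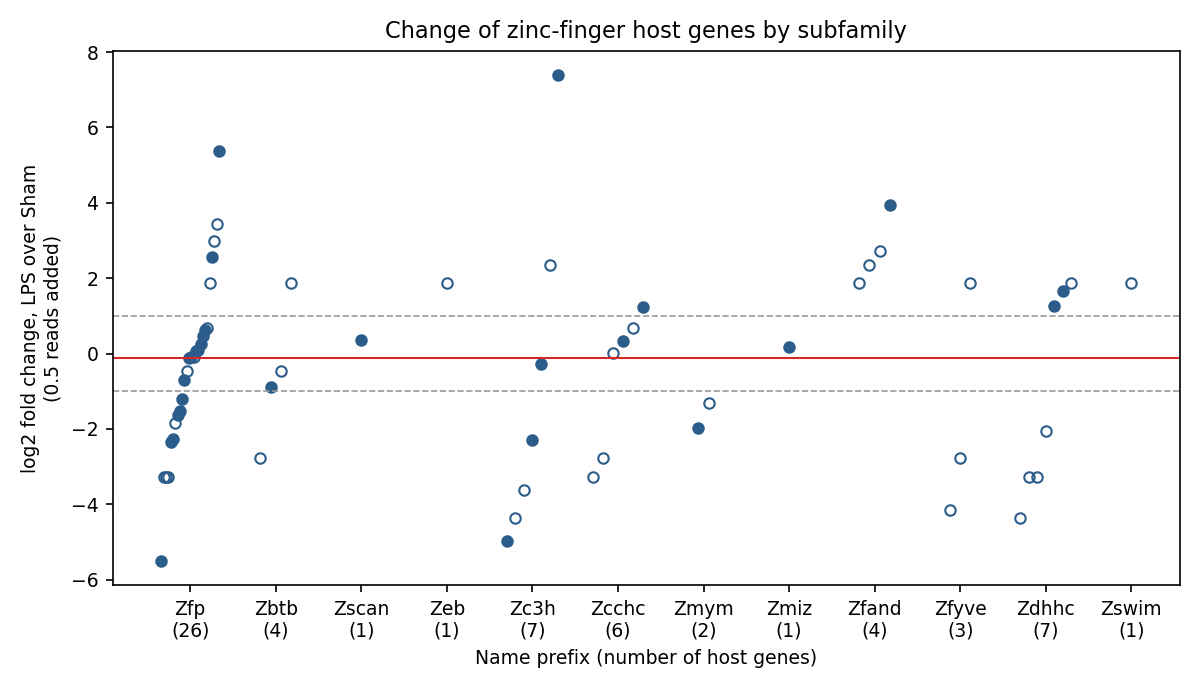
Log2 fold change of LPS over Sham, with 0.5 reads added, of the 63 zinc-finger host genes by name prefix, 1 library per group. Filled points have at least 10 reads over both libraries and open points fewer, dashed lines mark 2-fold, and the red line is the median of all 1192 host genes with at least 10 reads (-0.13). The filled Zmym point, Zmym4, lies below 2-fold. The 4 Zfand points lie above 2-fold with 0.5 reads added, but none of these hosts was listed in Sham and the bound of each falls short of 2-fold.

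The zinc-finger junctions were close to the rest of the table in listing and depth, with shorter spans and more of them on chromosome 5. Of the 94, 36 were listed in both libraries, 30 in Sham only (31.9%, against 32.4% of all circRNAs) and 28 in LPS only. Under 10 reads over both libraries were found for 67.0% of them and for 66.6% of all. A start or end shared with another listed circRNA was found for 38.3%, against 37.4%. Their genomic spans had a median of 2728 nt, against 4394 nt over all, and 6.38% reached 25000 nt, against 11.1%. Chromosome 5 held 19 of the 94 junctions (20.2%), among them those of Zcchc11, Zfp292, Zmym4 and Zfyve9, against 7.73% of all. No test was made of these differences, and junctions of 1 host gene share their source.

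Junctions of 1 host gene did not always share a direction. At least 2 junctions were listed for 22 zinc-finger host genes. By sign alone, with no minimum of reads, all junctions were lower in LPS for 9 of these (40.9%) and all were higher for 2 (9.09%), while 11 (50%) held both directions. Over the 912 host genes of the table with at least 2 junctions the shares were 23.4%, 15.0% and 61.6%, but those have more junctions each. With exactly 2 junctions, 46.7% of 15 zinc-finger host genes held both directions, against 46.8% of 509 in all. Many of these signs come from a few reads and from junctions listed in 1 library. With only junctions of at least 10 reads, 5 zinc-finger host genes remained, 3 lower throughout, 1 higher throughout and 1, Zfp292, in both directions. Over all 236 such host genes 23.3% were lower throughout, 19.9% higher throughout and 56.8% in both directions. With exactly 2 such junctions, 1 of 3 zinc-finger host genes held both directions, against 47.4% of 154 in all. A pair of Zfp94 junctions, whose starts lie 10 nt apart and whose ends lie 71 nt apart, had 4 Sham reads in one and 4 LPS reads in the other. Zc3h13 had junctions with starts 3 nt apart and the same end, with 7 Sham and 4 LPS reads in one and 4 LPS reads in the other. Both pairs were picked after their values were seen, and reads could be split between such near-identical junctions.

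The lung label was checked against circRNAs hosted by cell type markers. Of 7 alveolar epithelial markers, 2 were listed, with 1522 CPM in Sham and 2133 CPM in LPS. Rtkn2, of type I cells, had the most, with 53 Sham and 112 LPS reads, and Sftpc, of type II cells, had 5 Sham reads and was not listed in LPS. Sftpb, Sftpa1, Lamp3, Ager and Hopx were listed in neither library. Markers of some other cell types also differed between the libraries. Of 6 endothelial markers 3 were listed, with 839.6 CPM in Sham and 190.5 CPM in LPS, and Tek, the most read, went from 18 to 2 reads and Calcrl from 14 to 4, while Ptprb had 4 LPS reads and none listed in Sham. Pecam1, Cdh5 and Kdr were not listed.

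Of 6 fibroblast and smooth muscle markers 3 were listed, with 10522 CPM in Sham and 3999.6 CPM in LPS. Eln, the elastin gene, had the most, with 331 Sham and 206 LPS reads, and Col3a1 went from 70 reads to 2, while Pdgfra had 2 LPS reads and none listed in Sham. Eln lay within 2-fold when scaled to all shared circRNAs (log2 -0.68), and Col1a1, Acta2 and Myh11 were not listed. Of 4 neutrophil markers only Csf3r was listed, with 25 LPS reads (476 CPM) and none listed in Sham, and S100a8, S100a9 and Cxcr2 were in neither library. Macrophage markers, 2 of 5 listed, summed to 2 Sham reads (52.5 CPM) and 7 LPS reads (133 CPM), too few for a call. Mrc1 had 2 Sham and 4 LPS reads, and Adgre1 had 3 LPS reads and none listed in Sham. Marco, Cd68 and Csf1r were not listed. None of 3 lymphocyte and none of 3 ciliated cell markers was listed. A gene without a listed circRNA may still be expressed, since circRNA does not measure mRNA. Whether the cell makeup of the libraries has a part in the zinc-finger differences was not tested.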

How the data were processed

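CircRNA of lung from 1 Sham and 1 LPS library was analysed. For each circRNA the authors deposited a value per library, headed TPM, which has no length term and is read here as CPM. The submitters' processing notes name CASAVA 1.8, BWA and build rn6. The circRNA caller is not given in the sources used here. Columns were assigned by their names. Of the listed values, 100% were whole reads within 0.01 reads, but CPM are not counts and there is 1 library per group, so that no test was used.

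Junction values were summed per host gene, with 0.001 as 0. The host gene was the last name given for a circRNA. For the comparison with all host genes, 459 circRNAs whose last name is a small RNA family or which have no name were left out. Log2 fold changes compare values with 0.5 reads added, and ratios have none added. The members, the lists and the rule for named genes were chosen with earlier results of these data known. That rule takes the 5 host genes with the highest mean level, the 6 at each end of the fold changes among host genes of at least 10 reads, the most-read of each prefix, and the 4 with the most junctions with ties, and gave 24. Other genes were named after their values were seen. The alternatives were a pseudocount of 1 read, 0.001 as 1 read, no minimum or 20 reads, at least 4-fold, single host names, the most-read junction alone, the most-read junction of the group left out, and the median of ratios of shared circRNAs. Added after seeing the data were shared circRNAs with at least 50 reads as the scale, sums without chosen host genes, the last of tied most-read junctions, junction directions with at least 10 reads per junction, and pairs of junctions of 1 host gene set against each other by exact conditional intervals. The summary over the whole list of corepressors is not reported here. Steps were tested on simulated data. No sequence of build rn6 was used. Symbols were matched to RefSeq (GRCr8) by name. Values were computed with pandas 2.3.3, numpy 2.4.6 and scipy 1.17.1 in Python 3.11.15 and drawn with matplotlib 3.10.9.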

Additional observations from a re-analysis of the deposited data

How the results depend on the processing

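No paired analysis was possible because there is 1 library per group, and none could be left out. The main counts were 7 higher and 9 lower of 28 zinc-finger host genes. The number higher was 19 of 63 with no minimum of reads, 4 of 22 with single host names and 4 of 28 at 4-fold. Over all host genes the shares higher were 30.9%, 24.1% and 14.01% in the same settings. The number lower was 25 of 63 with no minimum, 5 of 12 with at least 20 reads and 5 of 28 at 4-fold. The matching shares lower of all host genes were 38.2%, 20.3% and 10.99%. In the other settings, both counts stayed within 1.5 times. The median log2 fold change of 0.077 was 0.038 with a pseudocount of 1 read, -0.12 with 0.001 as 1 read, -0.10 with no minimum, 0.062 with at least 20 reads, -0.030 with single host names and -0.20 with the most-read junction alone, whichever of tied junctions was taken. It was 0.54 scaled to all shared circRNAs and -0.37 scaled to those with at least 50 reads, a scale added after seeing the data. The summed level, at a log2 ratio of 0.0058, was 0.47 and -0.44 on these scales, -0.20 with single host names and -0.27 without the most-read junction, that of Zc3h4, -0.58 without Zc3h4 and Zcchc11, and 0.47 without Zfp609, Zfp532, Zmym4 and Zfp827. A pseudocount does not enter this ratio. Zfp385d reversed to -2.78 with single host names, which leave out the junction with its LPS reads. Zmiz1, at 0.17, was -3.92 or 2.997 by which of its 2 tied most-read junctions was taken, and Zmym2 was 1.86 with the last of its tied junctions. For the other 160 values of named host genes, the alternative lay within the counting interval. Subfamily sums without leading host genes were added after seeing the data. Zc3h reversed from 1.19 to -2.01 without Zc3h4 and Zcchc from 1.01 to -0.18 without Zcchc11, and Zdhhc went from 0.11 to -1.08 without Zdhhc5. Zfp, at -0.57, was -0.33 without Zfp609, -0.14 without Zfp609 and Zfp532 and -0.74 without Zfp759. Zfp759, Zfand3, Zfp629 and Zscan2 have no junction with a single host name. Apart from settings whose construction shows why a value moved, the cause was not tested. Depth limits 35 of the 63 host genes, which have under 10 reads.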

Other observations

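Lists fixed together with the members held genes that work with zinc-finger proteins, and further zinc-finger genes. Some of these genes hosted circRNAs of their own. Over all host genes with at least 10 reads 24.7% were higher and 26.9% lower in LPS, 34.6% and 17.8% when scaled to all shared circRNAs, and 19.97% and 38.3% when scaled to those with at least 50 reads. Among corepressors that KRAB, ZEB and MYM proteins recruit, Ncor1 went from 11 Sham to 4 LPS reads, 3.79-fold lower (95% interval 1.12 to 16.3), and stayed at least 2-fold lower when scaled to all shared circRNAs (log2 -1.35). Kdm1a, with 15 Sham and 10 LPS reads, and Setdb2, with 9 and 6, were each 2.07-fold lower, but their intervals include 1 and both lay within 2-fold on that scale. Hdac2, a histone deacetylase, had 33 reads in Sham and 38 in LPS, within 2-fold. Of 62 C2H2 factors with other names, 17 were listed and 6 had at least 10 reads, with none higher and 2, Bcl11b and Rreb1, lower. Scaled to all shared circRNAs 1 was higher and none lower, and scaled to those with at least 50 reads none and 3. Bcl11b went from 13 Sham to 7 LPS reads, 2.56-fold lower with an interval that includes 1 (0.949 to 7.57). Ikzf1, the lymphoid factor Ikaros, had the most, with 52 Sham and 89 LPS reads, a ratio of 1.24 (0.873 to 1.78).

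Of 26 partners of phosphatidylinositol 3-phosphate and FYVE proteins, 14 were listed and 7 had at least 10 reads, with 3 higher and 1 lower in LPS. Scaled to all shared circRNAs 4 were higher and 1 lower, and scaled to those with at least 50 reads 2 and 2. Mtmr3, a phosphatase of this lipid, was at 1154 CPM (860.2 to 1549) in Sham against 2666 CPM (2260.2 to 3145) in LPS, 2.31-fold higher (1.64 to 3.32), short of 2-fold when scaled to shared circRNAs with at least 50 reads (log2 0.75). Fgd6 and Wdfy1, both with FYVE fingers of their own, had 18 and 17 LPS reads and were not listed in Sham, at least 2.75-fold and 2.60-fold higher. Rufy1, an endosomal FYVE protein, went from 18 Sham to 6 LPS reads, 4.13-fold lower (1.57 to 12.7). Uvrag, of the Beclin complex, had the most reads, 323 in Sham and 384 in LPS, a ratio of 0.863 (0.742 to 1.004). Of 23 other CCCH RNA-binding proteins, 9 were listed and 4 had at least 10 reads, with none higher and 2, Mkrn1 and Rbm27, lower, and Mbnl1 had the most reads, 12 and 30. Scaled to all shared circRNAs 2 were higher and 2 lower, and scaled to those with at least 50 reads none and 2. Rbm27 went from 9 Sham to 4 LPS reads, 3.10-fold lower with an interval that includes 1 (0.865 to 13.8). Of 10 partners in palmitoylation only Ppt1, a depalmitoylating enzyme, was listed, with 6 Sham and 10 LPS reads. These genes were named after their values were seen.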
